A study of Drosophila melanogaster with 44 samples.

Results

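Chorion protein genes encode the structural proteins of the chorion, the outer layers of the Drosophila eggshell. The list examined here holds 9 of them: Cp7Fa, Cp7Fb, Cp7Fc, Cp36 and Cp38, which lie together on the X chromosome, and Cp18, Cp15, Cp19 and Cp16, which lie together on arm 3L. Members were chosen by gene symbol, as the probe sets annotated to these genes. Each of 7 members, Cp7Fc, Cp36, Cp38, Cp18, Cp15, Cp19 and Cp16, had 1 probe set, out of 11892 genes with a probe set and a place on a chromosome arm. No probe set with 1 gene symbol carried the names Cp7Fa or Cp7Fb, and those 2 genes were not analysed here.

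Expression was measured on 44 Affymetrix arrays in adult Drosophila melanogaster females, 0 to 24 h old and raised at 25 °C, with total RNA of 15 females pooled per array. Flies were heterozygous for 2 deletions on 19 arrays, heterozygous for 1 deletion on 19 arrays and wild type on 6 arrays. Of the deletions, 3 lay on arm 3R (Df(3R)ED10953, Df(3R)ED7665, Df(3R)ED5071), 2 on arm 2R (Df(2R)ED1770, Df(2R)ED1612) and 2 on arm 2L (Df(2L)ED3, Df(2L)ED4559), and the ED names stand for them here. Each of the 19 pairs of deletions had 1 array, ED5071 and ED7665 alone had 2 arrays each, the other 5 deletions alone had 3 arrays each, and the labels call these replicates biological. The labels write ED4559+ED3, ED1770+ED1612, ED5071+ED10953 and ED7665+ED10953, pairs on the same arm, as 1 deletion over the other. In the remaining pairs each deletion is written over a wild-type copy. All 19 pairs were treated as 1 class here, and these 2 kinds of pair were not compared. The sources used here give neither the wild-type strain nor the genetic background of the deletion crosses. None of the 7 deletions lies on the X chromosome or on 3L, so none removes a chorion gene of the list.

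The chorion is secreted by the follicle cells, the somatic epithelium around each developing egg, late in oogenesis and after the inner vitelline membrane has been laid down. The chorion genes lie in 2 clusters, one on X and one on 3L, which the follicle cells amplify by firing a replication origin in each cluster again and again. The genes are then switched on in a set order: Cp36 and Cp38 of the X cluster are known as early chorion genes, and Cp15 and Cp16 of the 3L cluster as late ones. Flies eclose with immature ovaries, and egg chambers advance to the later stages over the first days of adult life. Because the RNA came from whole females, fewer follicle cells at a given stage and less RNA per cell cannot be told apart.

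The deposited values are log2 expression values, so a difference of 1 is a doubling. Array medians lay between 5.50 and 5.73. Yolk protein and yolk receptor genes averaged 11.60 to 13.38 per array, and 9 genes of male accessory gland and testis averaged 3.73 to 4.43. Values of different probe sets are not compared as levels, and a member is described against its own range. A gene is called high in an array here when its value lies more than 25% of the way from its lowest to its highest array. The middle of that range is used as a stricter limit.

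The chorion genes were among the most variable genes in the series. Of 11892 genes, 10 spanned more than 8 log2 units between their lowest and highest array, and all 7 measured members were among them. Cp15 had the widest range of all genes, 10.09, and Cp19 the next, 9.89. Cp16 ranked 4, Cp36 ranked 6, Cp18 ranked 7, Cp7Fc ranked 8 and Cp38 ranked 9, with ranges of 8.83, 8.49, 8.34, 8.28 and 8.25. The other genes among these 10 were Vm32E and Vm26Aa, which encode vitelline membrane proteins, and Fbp2, a fat body protein gene. The median range over all genes was 0.96.

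The wide ranges came from a minority of arrays. In 32 of the 44 arrays no chorion gene was high, and there each gene kept within a narrow band: Cp15 averaged 4.42 ± 0.22, Cp36 averaged 5.74 ± 0.27 and Cp16 averaged 4.55 ± 0.15 (SD, n = 32). In 12 arrays at least 1 chorion gene was high, and in 6 of these all 7 were. Cp15 was high in 10 arrays, Cp19 and Cp36 in 9 each, Cp7Fc, Cp16 and Cp18 in 8 each, and Cp38 in 7. Over all 44 arrays the lowest, median and highest values were 4.0, 4.49 and 14.10 for Cp15, and 5.42, 5.74 and 13.90 for Cp36. Medians sat close to the lowest values because most arrays were low.

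**Figure D1:**
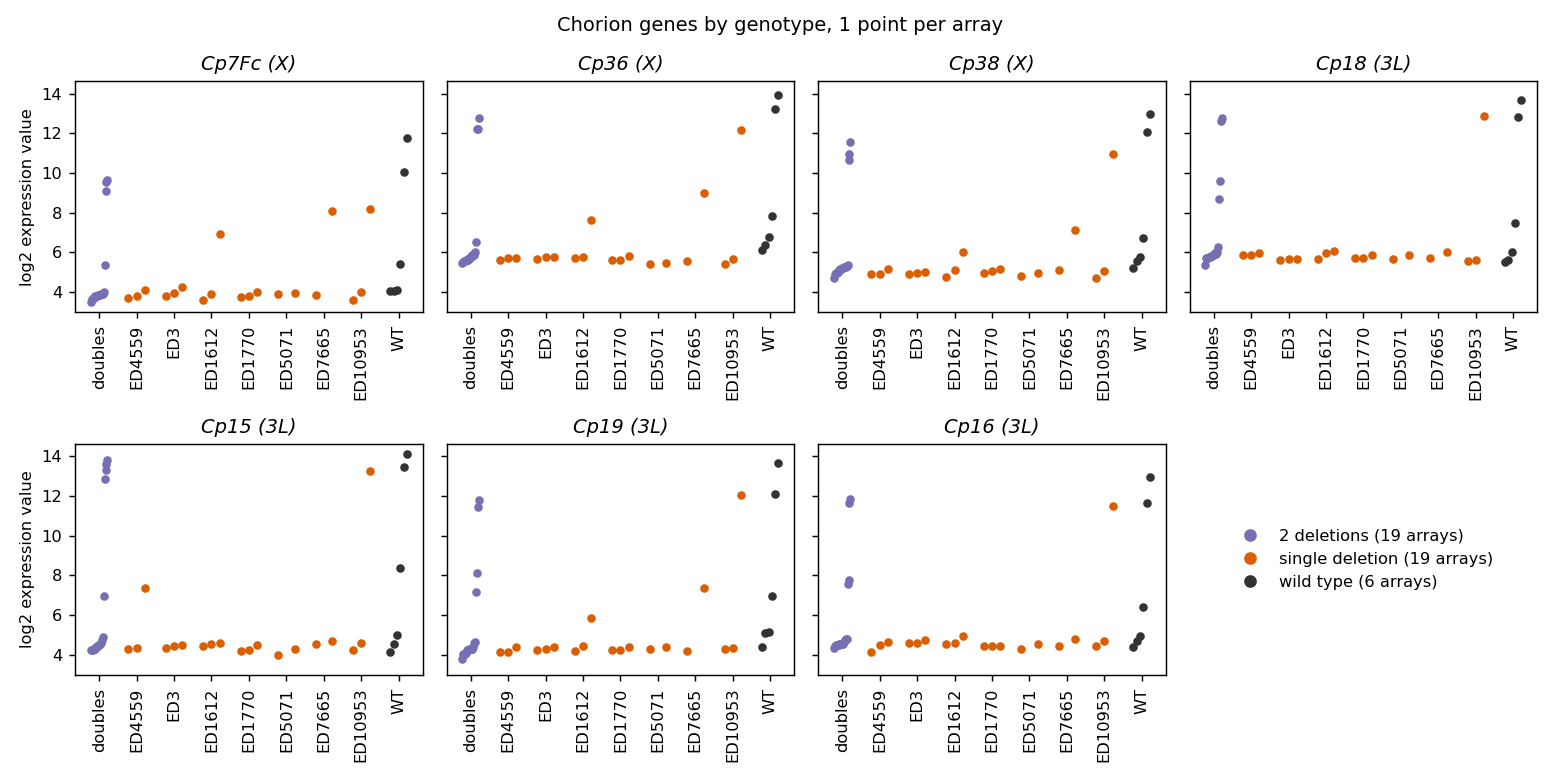
Log2 expression value (vertical axis) of each measured chorion gene in every array, 1 point per array, with genotype on the horizontal axis; points of a genotype are spread sideways in order of value. Double-deletion arrays are in purple, single-deletion arrays in orange and wild-type arrays in black. Most points of a gene lie in a low band, and a few arrays of each class lie far above it, up to 14.10 for Cp15.

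Among arrays with 2 deletions, 5 of 19 had a high chorion gene, and in 3 of them all 7 genes were high. In the ED5071+ED1770 array Cp36 was 12.76, Cp38 was 11.57, Cp7Fc was 9.07, Cp18 was 12.76, Cp19 was 11.77, Cp16 was 11.86 and Cp15 was 13.30. In the ED7665+ED1770 array Cp36 was 12.19, Cp38 was 10.67, Cp7Fc was 9.66, Cp18 was 12.63, Cp19 was 11.42, Cp16 was 11.66 and Cp15 was 13.61. In the ED5071+ED3 array Cp36 was 12.23 and Cp15 was 12.83, both near the other 2, while Cp18 was 9.59, Cp19 was 8.09 and Cp16 was 7.77. The remaining arrays with a high gene, ED1770+ED3 and ED1770+ED1612, were high in only some of the genes. In the other 14 double-deletion arrays Cp15 stayed at or below 4.90.

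Among single-deletion arrays, 4 of 19 had a high chorion gene, and in 1 of them, the third ED10953 replicate, all 7 were high. There Cp36 was 12.16, Cp38 was 10.93, Cp7Fc was 8.17, Cp18 was 12.88, Cp19 was 12.03, Cp16 was 11.52 and Cp15 was 13.26. The first and second ED10953 replicates were in the low band, with Cp36 at 5.42 and 5.66 and Cp15 at 4.57 and 4.25. The same genotype therefore held both states. All arrays of ED3, ED1770 and ED5071 alone were low, for instance with Cp15 between 4.0 and 4.49.

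Among the 6 wild-type arrays, 3 had a high chorion gene. Replicates 1 to 6 had Cp15 values of 4.98, 4.13, 4.53, 14.10, 13.48 and 8.38, and Cp36 values of 6.78, 6.12, 6.35, 13.90, 13.20 and 7.81. Replicate 4 was the highest of all 44 arrays in each of the 7 genes, with Cp38 at 12.94, Cp7Fc at 11.78, Cp18 at 13.69, Cp19 at 13.68 and Cp16 at 12.96. Replicate 6 lay between the low band and the full level in each of the 7 genes, and 5 of them passed the limit. Wild-type replicates thus covered nearly the whole range seen across the series.

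The 7 genes were mostly high together, and the balance between the clusters differed between arrays. Over the 44 arrays Pearson's r between members ran from 0.815, for Cp7Fc with Cp15, to 0.996, for Cp16 with Cp18, among 21 pairs. These correlations are descriptions that rest on the few high arrays, and all points share the array and its normalization. Relative to each gene's median over the 44 arrays, wild-type replicate 4 was up by 8.16 for Cp36 and 9.61 for Cp15, so both clusters stood far above their low band. The rise of the 3L genes averaged over Cp18, Cp15, Cp19 and Cp16, minus that of the X genes averaged over Cp7Fc, Cp36 and Cp38, was 0.86 in wild-type replicate 4 and 0.85 in wild-type replicate 5. The same difference was 1.41 in ED5071+ED1770, 1.61 in ED7665+ED1770 and 2.13 in the third ED10953 replicate, and it was -1.22 in ED5071+ED3. The medians lie in the low band, where values are compressed, but they enter each array alike, so these figures order the arrays and do not measure which cluster rose more.

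The clearest departure was the ED1770+ED3 array, in which the 3L cluster was high and the X cluster was not. The late gene Cp15 stood at 13.81 there, second only to wild-type replicate 4, while the early genes Cp36 and Cp38 stood at 5.56 and 5.35 and Cp7Fc at 3.88, all inside their low bands. The rest of the 3L cluster was in between: Cp16 was 7.56, Cp18 was 8.68 and Cp19 was 7.18, which is 3.00, 2.81 and 2.86 above their medians against 9.32 for Cp15. The genotype had 1 array, so there is no replicate of this pattern. Arrays of ED1770 alone and ED3 alone were low in all 7 genes.

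The reverse, an X cluster high with Cp15 low, was seen in weaker form in the first ED7665 replicate and the third ED1612 replicate. In the ED7665 replicate Cp7Fc was 8.06, Cp36 was 8.98 and Cp38 was 7.14, while Cp15 was 4.54, Cp18 was 5.73 and Cp16 was 4.79. In the ED1612 replicate Cp7Fc was 6.93 and Cp36 was 7.63, while Cp38 was 6.0 and Cp15 was 4.57. Of the 3L genes Cp19 went with the X cluster in the ED7665 replicate, at 7.34, and stood at 5.84 in the ED1612 replicate, just under its limit of 6.26. The second ED7665 replicate was low, with Cp36 at 5.55 and Cp7Fc at 3.84, and so were the first and second ED1612 replicates, with Cp36 at 5.73 and 5.74.

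In 2 further arrays Cp15 alone passed 25% of its range. In the first ED4559 replicate Cp15 was 7.38 and the 6 other genes lay within 0.43 of their medians. In the ED1770+ED1612 array Cp15 was 6.94, Cp7Fc was 5.36 and Cp36 was 6.52, the last pair below their limits of 5.57 and 7.54. The second and the third ED4559 replicates had Cp15 at 4.33 and 4.29, so the partial rise was not shared between replicates of that deletion.

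**Figure D2:**
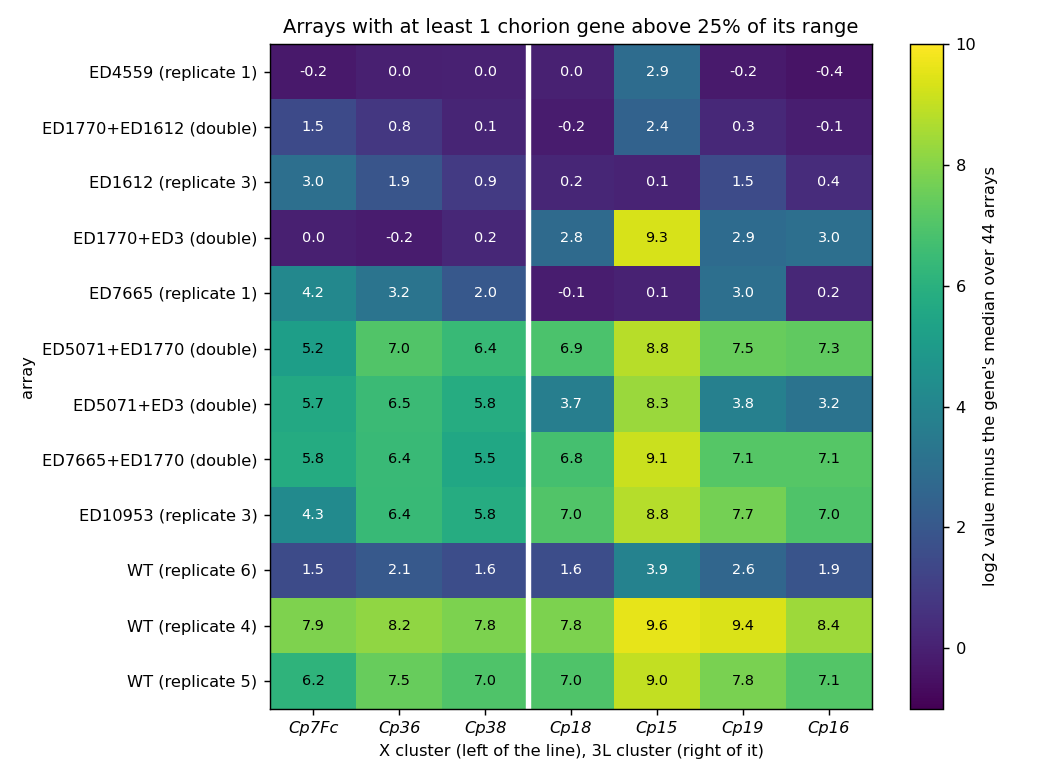
Log2 value minus the gene's median over 44 arrays, as colour and number, for the 7 chorion genes (columns, X cluster left of the white line and 3L cluster right of it) in the 12 arrays (rows) with at least 1 gene above 25% of its range; deletion arrays stand above wild type. ED1770+ED3 is high in the 3L genes only, with 9.3 for Cp15 and -0.2 for Cp36, and the ED7665 replicate is high in the X genes and Cp19.

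Counted over arrays, Cp15 was high wherever Cp16 or Cp18 was. Cp16 and Cp18 were high in the same 8 arrays, all of them among the 10 with Cp15 high. Within the X cluster Cp7Fc was high in 8 arrays and Cp38 in 7, in each case only among the 9 with Cp36 high. Between the clusters the order was mixed: Cp36 was high with Cp15 not high in 2 arrays, the ED7665 and ED1612 replicates, and Cp15 was high with Cp36 not high in 3 arrays, ED1770+ED3, ED1770+ED1612 and the ED4559 replicate. Both were high in 7 arrays.

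With the middle of the range as the limit, no array had Cp36 above and Cp15 below, and 1 array, ED1770+ED3, had the reverse. Cp36 passed its middle of 9.66 in 6 arrays and Cp15 its middle of 9.05 in 7. With Cp38 for the early and Cp16 for the late genes, 1 array had the early gene alone above and 0 had the late gene alone above. That array was ED5071+ED3, where Cp38 was 10.95 and Cp16 was 7.77. The direction of the count thus depended on which early and late gene stood for its class.

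**Figure D3:**
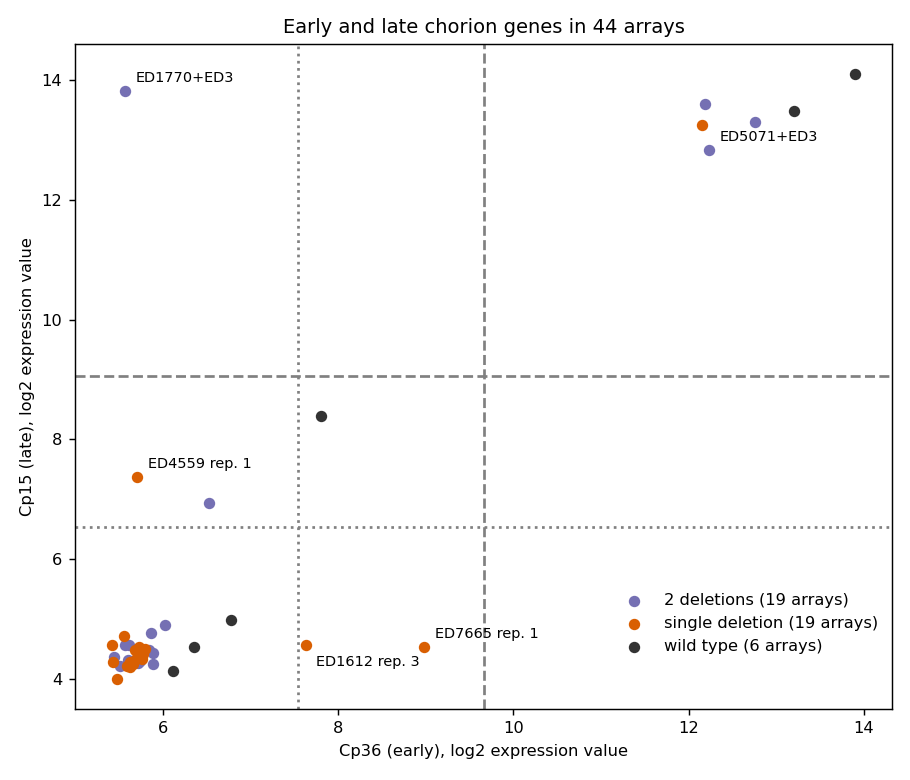
Early chorion gene Cp36 (horizontal axis) against late chorion gene Cp15 (vertical axis), both as log2 expression values, 1 point per array, with dotted lines at 25% and dashed lines at the middle of each gene's range. The 6 arrays above both middles lie at the upper right, ED1770+ED3 at 13.81 for Cp15 and 5.56 for Cp36 lies alone at the upper left, and the ED7665 replicate lies to the right with Cp15 low.

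Single-deletion flies were then compared with wild type, which asks whether losing 1 copy of a segment goes with another level of the chorion genes. All 7 genes averaged lower in single-deletion flies, and none passed the test, against 1.56% of all tested genes. Cp36 averaged 6.26 ± 1.67 in single-deletion flies (SD, n = 19) and 9.03 ± 3.56 in wild type (SD, n = 6). Cp15 averaged 5.01 ± 2.12 in single-deletion flies and 8.27 ± 4.54 in wild type. The groups overlapped in every gene, and the SD within wild type was larger than the difference between the group means for each.

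The contrast averaged the 7 deletions and was fitted with limma over the 7485 genes whose mean over all arrays was at least 6. Of these, 117 passed a Benjamini-Hochberg adjusted p of 0.05, or 1.56% of genes. Cp36, Cp38, Cp15 and Cp18 had means of 6.87, 6.07, 6.08 and 6.80 and entered this fit, while Cp16, Cp19 and Cp7Fc, with means of 5.58, 5.53 and 4.89, are given from a fit over all 11892 genes. The log2 difference of Cp36 was -2.75 ± 1.07 (SE; 95% interval -4.98 to -0.53; limma adjusted p = 0.149), and that of Cp15 was -3.31 ± 1.35 (interval -6.13 to -0.49; adjusted p = 0.167). Cp38 was at -2.59, Cp18 at -2.40, Cp16 at -2.64, Cp19 at -2.95 and Cp7Fc at -2.05, with limma adjusted p of 0.287 or less. With 0 of 7 called, all 4 members in the fit of 7485 genes had an unadjusted limma p under 0.05, against 1607 of those genes (21.5%). In the fit over all 11892 genes 2 of the 3 members had one, and the share over all genes was not counted for that fit.

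The difference rested on 2 wild-type arrays. Without wild-type replicates 4 and 5, a choice made after seeing the data, the log2 difference was -0.49 for Cp36, -0.55 for Cp15, -0.36 for Cp38, -0.46 for Cp19, -0.24 for Cp16, -0.03 for Cp18 and 0.12 for Cp7Fc. Wild type took array numbers 1 to 6 and every deletion array a number from 7 on, so array number and deletion cannot be told apart in this comparison. Counted by rank, 31 of the 38 deletion arrays lay below the lowest wild-type array in Cp36, 29 in Cp7Fc, 28 in Cp19 and 27 in Cp38. For Cp15 the count was 1 of 38, for Cp16 it was 3 and for Cp18 it was 1. No deletion array exceeded the highest wild-type array in any of the 7 genes.

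**Figure D4:**
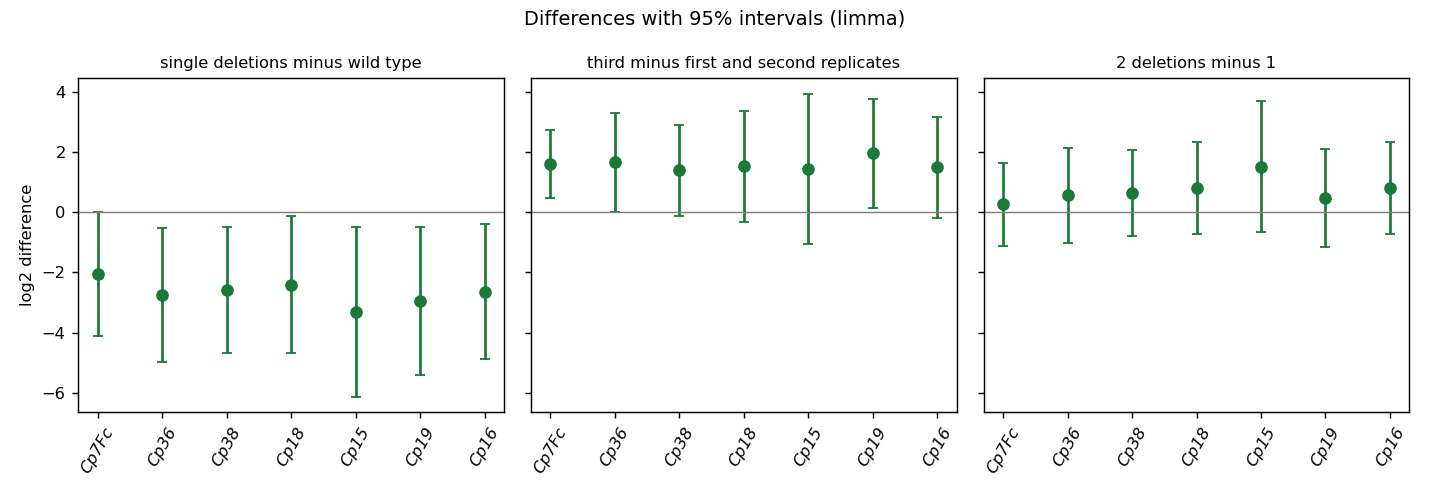
Log2 differences (vertical axis) of the 7 chorion genes (horizontal axis) with 95% intervals from limma, for single deletions minus wild type, replicate 3 minus replicates 1 and 2 of 5 deletions, and double minus single deletions. Every estimate is below 0 in the left panel and above 0 in the middle and right panels, and the intervals of the right panel all cross 0.

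The 5 deletions with 3 arrays allowed replicate 3 to be set against replicates 1 and 2 with genotype held fixed. In the labels replicates 3 carry later array numbers than replicates 1 and 2, so replicate and array number go together. All 7 genes averaged higher in replicates 3, and Cp7Fc alone passed. Cp7Fc averaged 5.43 ± 1.99 in replicates 3 (SD, n = 5) and 3.82 ± 0.18 in replicates 1 and 2 (SD, n = 10), a log2 difference of 1.61 ± 0.52 (SE; limma adjusted p = 0.0304 in the fit over all 11892 genes). In that fit 4193 genes, 35.3%, were called, and in the fit of 7485 genes 3798 were, or 50.7%. The 1 call among 7 members is no larger a share than these backgrounds.

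Replicates 3 differed among themselves. Cp7Fc was 3.81 in ED4559, 4.24 in ED3, 6.93 in ED1612, 3.99 in ED1770 and 8.17 in ED10953, so ED1612 and ED10953 were high and the rest close to replicates 1 and 2. Without the third ED10953 replicate the difference of Cp7Fc was 0.92 (limma adjusted p = 0.110), and without the third ED1612 replicate 1.22 (adjusted p = 0.115). Without the first ED1612 replicate the adjusted p was 0.0523, and without the second ED10953 replicate 0.0522. None of the 4 members in the filtered fit was called: Cp36 differed by 1.67 ± 0.75 (SE; limma adjusted p = 0.0831), Cp38 by 1.40, Cp18 by 1.53 and Cp15 by 1.45 ± 1.15 (adjusted p = 0.313), and 1 of these 4, Cp36, had an unadjusted limma p under 0.05, against 57.2% of the 7485 tested genes. In the fit over all genes Cp19 had the largest difference of the members, 1.96 ± 0.83 (SE; limma adjusted p = 0.0856), and Cp16 differed by 1.5 (adjusted p = 0.154). Without the third ED10953 replicate the difference was 0.44 for Cp36, 0.23 for Cp38, 0.088 for Cp18, 0.52 for Cp19, 0.14 for Cp16 and -0.40 for Cp15.

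Double-deletion flies did not differ from single-deletion flies by the test in any chorion gene. Cp15 averaged 6.45 ± 3.73 in double-deletion flies (SD, n = 19) and 5.01 ± 2.12 in single-deletion flies (SD, n = 19), a weighted log2 difference of 1.51 ± 1.08 (SE; 95% interval -0.67 to 3.69). Cp36 averaged 6.81 ± 2.50 in double-deletion flies and 6.26 ± 1.67 in single-deletion flies, a difference of 0.56 ± 0.77 (interval -1.01 to 2.13). The medians were close, 4.47 in double-deletion and 4.46 in single-deletion flies for Cp15, and 5.75 in double-deletion and 5.69 in single-deletion flies for Cp36. Of 7485 genes limma called 0, or 0%, with 281 (3.75%) at an unadjusted p under 0.05. None of the 4 chorion genes in that fit, nor of the 3 in the fit over all genes, had an unadjusted limma p under 0.05. The intervals leave room for differences of more than 1 log2 unit in either direction for Cp36, Cp19 and Cp7Fc.

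Carriers of each deletion, alone or in pairs, were compared with non-carriers in 1 fit of all 44 arrays, with array number up to 26 or from 27 as a block. All arrays with ED5071 or ED7665 were numbered from 27, so the block largely overlaps with these deletions and their estimates were less precise. For Cp7Fc the SE was 1.22 for ED5071 and for ED7665, against 0.81 for ED4559. None of the 49 pairs of chorion gene and deletion was called by limma. An unadjusted limma p under 0.05 was seen in 0 of the 28 pairs of the filtered fit and in 1 of the 21 pairs of the fit over all genes. Over all genes and deletions of the filtered fit 14.2% of tests had an unadjusted p under 0.05. In that fit 1457 of 52395 passed, or 2.78%, a share that includes genes inside the deleted segments. The lowest estimate was that of Cp19 for ED4559, -2.04 (limma adjusted p = 0.291), and the highest that of Cp15 for ED1770, 2.09 (adjusted p = 0.521). Cp15 averaged 8.13 ± 4.60 in ED1770 carriers (SD, n = 8) and 5.62 ± 2.92 in non-carriers (SD, n = 36).

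By count, a chorion gene was high in 4 of 5 double-deletion arrays with ED1770 and in 0 of 3 arrays of ED1770 alone. For ED5071 it was 2 of 5 doubles and 0 of 2 singles, for ED3 2 of 6 and 0 of 3, for ED1612 1 of 6 and 1 of 3, for ED7665 1 of 5 and 1 of 2, for ED10953 0 of 5 and 1 of 3, and for ED4559 0 of 6 and 1 of 3. A double array counts for both of its deletions. Array number moved with these counts as well. Among deletion arrays numbered from 27, 6 of 19 had a high chorion gene and 4 had all 7 high, and among those numbered up to 26 it was 3 of 19 and 0. All arrays with ED5071 or ED7665 were numbered from 27, and the only other deletion arrays from 27 were replicates 3 of the other 5 deletions. Array number and these deletions thus largely go together in the counts. The part of array number was not tested.

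Other eggshell genes did not follow the chorion genes in every array. Vm32E, a vitelline membrane protein gene, passed the middle of its own range in 26 arrays, and in 21 of these Cp36 was below its middle. Vm26Aa and Vm34Ca, of the same kind, passed theirs in 31 and 32 arrays, with Cp36 below in 25 and 26. The dec gene, named for defective chorion, passed in 22 arrays, 17 of them with Cp36 below. Of the 6 arrays with Cp36 above its middle, 6 had Vm26Aa above and 5 had Vm32E above. Vm26Ac, a further vitelline membrane gene, passed in 9 arrays, 5 of them with Cp36 below. Vm32E, Vm26Aa and Vm34Ca were thus above their middles in many arrays in which Cp36 was below, and the reverse held in 1 array for Vm32E, in 0 for Vm26Aa and Vm34Ca and in 2 for Vm26Ac. Of all 11 genes of the vitelline membrane and other eggshell list, 4 were above in all 6 arrays and 1, tsl, was above in none of them. Femcoat and Fcp3C of that list kept closer to Cp36. Femcoat passed its middle in 5 arrays, 0 of them with Cp36 below, and Fcp3C in 7, 2 of them with Cp36 below. Each was below its middle in 1 of the 6 arrays with Cp36 above.

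The arrays with an uneven chorion pattern also differed in these genes. In ED1770+ED3, Vm32E was 3.94, Vm26Aa 6.81 and dec 5.15, all below their middles of 8.37, 10.15 and 8.29. In the first ED7665 replicate Vm32E was 10.71, Vm26Aa 13.36 and dec 10.19, all above. In the third ED1612 replicate they were 8.70, 12.15 and 8.42, also above. The first ED4559 replicate, with Cp15 alone raised, was above as well, with Vm32E at 9.49 and Vm26Aa at 12.16. Vm26Ac, with a middle of 6.55, was 4.01 in ED1770+ED3, 7.25 in the first ED7665 replicate, 4.89 in the third ED1612 replicate and 6.02 in the first ED4559 replicate. In ED1770+ED1612, Vm32E was 11.32, Vm26Aa 13.13, dec 10.35 and Vm26Ac 7.50, all above their middles. ED1770+ED3 was thus below the middle in each of these 4 genes, and the other arrays named here were above it in Vm32E, Vm26Aa and dec. In Vm26Ac only ED1770+ED1612 and the first ED7665 replicate were above it.

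In the list of late eggshell enzymes, part of the genes kept to the arrays of Cp36. The genes yellow-g and yellow-g2, members of the yellow family expressed in follicle cells late in oogenesis, were above their middles in the same 6 arrays as Cp36 and in no other. In those 6 arrays yellow-g lay between 8.91 and 10.98, and elsewhere between 5.68 and 8.23. For yellow-g2 it was 7.92 to 11.05 in the 6 arrays and 4.76 to 5.40 elsewhere. In ED1770+ED3, yellow-g was 7.33 and yellow-g2 was 4.88, on the low side like Cp36. Pxt, a peroxidase gene of the same list, passed its middle in 22 arrays, and Pxd, a further peroxidase gene, passed in 27 arrays but in 0 of the 6.

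Some genes of the replication machinery that chorion gene amplification uses passed the middle of their range where Cp15 did. Orc1 and Orc4, which encode subunits of the origin recognition complex, were above their middles in the same 7 arrays as Cp15 and in no other. Orc1 lay between 7.69 and 9.50 in those 7 arrays and between 5.27 and 7.23 in the other 37, and it was 9.02 in ED1770+ED3. The gene dup, which encodes the loading factor Cdt1, was 8.97 in ED1770+ED3 and passed its middle in 8 arrays, the same 7 among them. Of the 23 amplification genes with a probe set, 10 were above their middles in all 7 arrays with Cp15 above its middle, against 802 of 7485 tested genes. As shares these are 43.5% and 10.7%. The count was not particular to Cp15: in the 6 arrays with Cp36 above its middle it was also 10 of 23, against 1084 of 7485 tested genes. Of 18 germline genes, 11 were above their middles in all 7 arrays of Cp15. The array choice came from Cp15 or Cp36 itself, and many amplification genes also serve DNA replication in the germline and in other dividing cells.

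**Figure D5:**
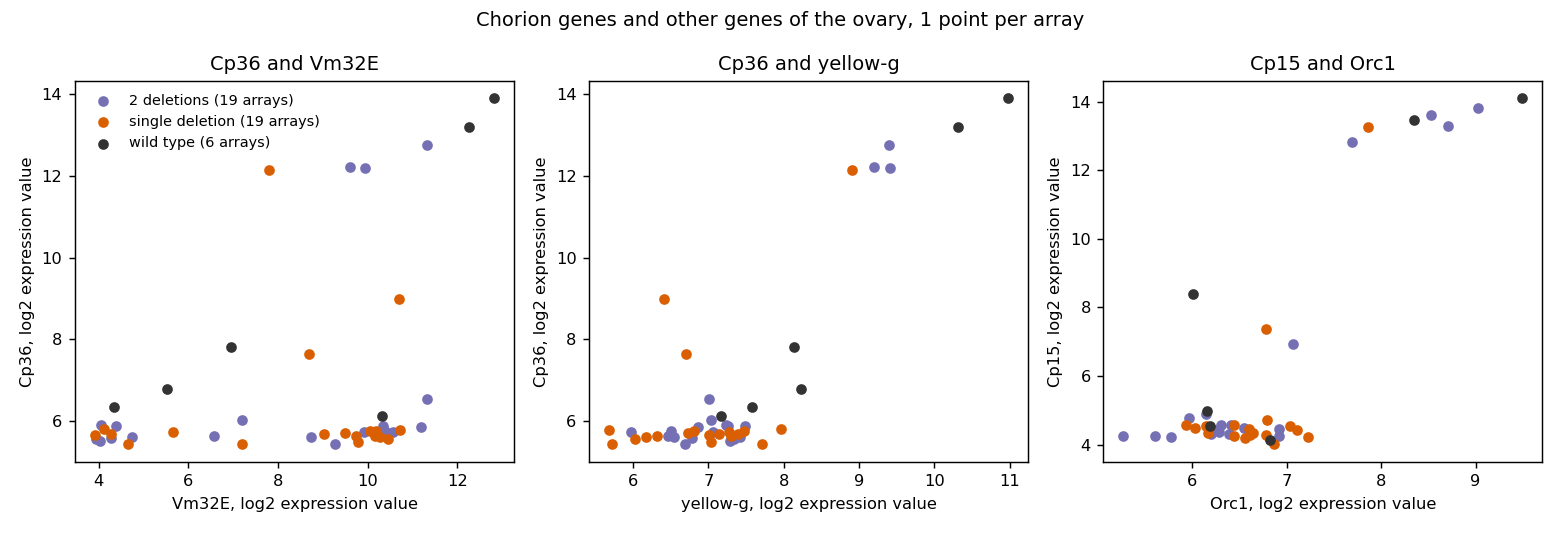
Chorion genes (vertical axes) against other genes (horizontal axes), all as log2 expression values with 1 point per array: Cp36 against Vm32E, Cp36 against yellow-g and Cp15 against Orc1. Vm32E is high in many arrays with Cp36 low, while yellow-g at 8.91 or more goes with Cp36 at 12.16 or more and Orc1 at 7.69 or more goes with Cp15 at 12.83 or more.

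Many germline genes passed their middles in the arrays where Cp36 did. Of 18 germline genes with a probe set, such as osk and bcd, 15 were above their middles in all 6 arrays with Cp36 above its middle, against 1084 of 7485 tested genes (14.5%). The array choice came from Cp36 itself, and none of the 18 was above in all those 6 arrays and no other. For instance osk passed in 29 arrays, 23 of them with Cp36 below, and bcd in 17, 11 of them with Cp36 below. The germline genes not above in all 6 were png, above in 4 of them, grk, in 2, and tud, in 1. With Cp36 below, grk passed in 16 arrays and tud in 24. The average of the germline list ran from 7.88 to 9.70 in double-deletion arrays, from 7.77 to 9.66 in single-deletion arrays and from 7.77 to 10.11 in wild-type arrays. All 4 yolk genes, Yp1, Yp2, Yp3 and the yolk receptor gene yl, were above their middles in those 6 arrays. Over all 44 arrays these yolk genes passed their middles in 23 (yl) to 39 (Yp3). Of 5 fat body and gut genes 4 were above their middles in all 6, namely Fbp1, Lsp2, Jon65Ai and Jon99Fi, and these 4 passed their middles in 33 to 42 of the 44 arrays. None of 5 muscle genes was above its middle in all 6, but each was above in 4 or 5 of them and in 40 to 43 of the 44 arrays. The part of the amount of ovary RNA in the chorion values was not tested.

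The lists were also counted between single deletions and wild type, where the median over all tested genes was -0.01. Of 3 late eggshell enzyme genes tested, 1 fell: yellow-g averaged 6.93 ± 0.80 in single-deletion flies and 8.73 ± 1.55 in wild type, a log2 difference of -1.86 ± 0.46 (SE; limma adjusted p = 0.0469). This call sat at the threshold: it was lost with no filter on low values (adjusted p = 0.0595), and with 1 array left out at a time it held in 7 of 25 fits. Without wild-type replicates 4 and 5 the difference of yellow-g was -0.90 (limma adjusted p = 0.133), and with array number as a block it was -1.59 (adjusted p = 0.217). No gene passed among 9 vitelline membrane and other eggshell genes (median -0.01), 20 amplification genes (median -0.16), 5 chorion gene regulators (median 0.01), 4 yolk genes (median 0.17), 18 germline genes (median 0.17), 5 muscle genes (median 0.08) or 5 fat body and gut genes (median -0.11). The 9 male genes were below the mean of 6 and were not tested. Fcp3C, a follicle cell protein gene of the vitelline list, averaged 5.89 ± 1.01 in single-deletion flies and 7.72 ± 2.36 in wild type (difference -1.80, limma adjusted p = 0.142).

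Between replicates 3 and replicates 1 and 2, where the median over all tested genes was 0.06, the ovary lists held more calls. Of the vitelline membrane and other eggshell genes 6 of 9 rose and 0 fell, with a median of 1.64, led by Vm26Aa at 2.83 ± 1.07 (SE; limma adjusted p = 0.0443), Vm34Ca at 2.66, dec at 2.41 and ndl, an eggshell patterning protease gene, at 1.64. Of the amplification genes 14 of 20 rose and 0 fell (median 0.44), among them dup at 0.77, Mcm5 at 0.74, Orc1 at 0.70 and Mcm6 at 0.70. Of the germline genes 16 of 18 rose and 0 fell (median 1.09), among them bcd at 1.53, CycB at 1.46, exu at 1.40 and swa at 1.36. Pxt rose by 1.54 and Pxd fell by 0.78, and of the yolk genes yl rose by 1.05. The muscle list had 1 rise, up at 0.40, and the regulators had no call. The fat body and gut list had 2 rises, Jon99Fi at 2.04 and Jon65Ai at 1.69, and 2 falls, Fbp1 at -2.25 and Lsp2 at -1.98. Without the third ED3 replicate, where Fbp1 was 6.07 and Lsp2 7.25, the lowest values of all 44 arrays, the differences were -1.11 (limma adjusted p = 0.0619) and -1.12 (adjusted p = 0.0435). These counts stand beside a background of 50.7% called in either direction, with 2273 of the 7485 tested genes risen and 1525 fallen. With 1 array left out at a time, Vm26Aa and Vm34Ca each stayed called in 5 of 15 fits and up in 7, and with no filter the limma adjusted p was 0.0515 for Vm26Aa and 0.0536 for Vm34Ca. Over the same fits dec, Orc1, Jon99Fi and Jon65Ai stayed called in 12 of 15, Fbp1 in 13, and ndl and Pxd in 14. The other genes named in this comparison as risen or fallen stayed called in 15 of 15.

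The genes most like Cp36 over the 44 arrays, among tested genes outside the list, were Jhbp5 with r = 0.876, yellow-g with 0.841, Fcp3C with 0.820, CG7730 with 0.777, msd1 with 0.768 and pim with 0.765. Without the 2 arrays farthest from the median of Cp36, wild-type replicates 4 and 5, r was 0.820, 0.743, 0.717, 0.694, 0.622 and 0.667 for these 6 (n = 42). The genes most like Cp15 were CG7730 with r = 0.874, msd1 with 0.869, CG11164 with 0.861, pim with 0.853, Orc1 with 0.844 and Orc5 with 0.836. Without wild-type replicate 4 and ED1770+ED3, the 2 farthest from the median of Cp15, r was 0.826, 0.839, 0.821, 0.796, 0.780 and 0.791 (n = 42). CG7730, msd1 and pim stood in both lists. Most arrays lie in a low band, a few far above it and some in between, so each r mainly says which arrays were high.

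In the uneven arrays the genes most like Cp36 did not go one way. In ED1770+ED3 Jhbp5 was 6.84, its lowest value of all 44 arrays, and Fcp3C was 5.21, while CG7730 was 7.76, msd1 was 8.01 and pim, which encodes the securin of the fly, was 9.84, well above their medians of 5.91, 6.48 and 6.84. These last 3 are also among the genes most like Cp15. In the first ED7665 replicate Jhbp5 was 8.79 and Fcp3C 8.83, above their medians of 7.37 and 5.47, while yellow-g was 6.40, below its median of 7.15. Orc1, of the genes most like Cp15 alone, was 9.02 in ED1770+ED3 and 7.04 in the first ED7665 replicate, against a median of 6.55.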

How the data were processed

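The authors deposited log2 values for the probe sets of 44 Affymetrix arrays, made with RMA per the submitters' processing notes. RMA corrects background, normalizes between arrays and summarizes probes. The version, genome build and annotation were not given in the sources used here. Log base was taken as log2 from the range of values, 2.58 to 14.66. RMA compresses low values, so differences of dim genes are understated. The number of arrays limits the precision.

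Of 18952 probe sets, 13646 had 1 gene symbol, 402 several and 4904 none. Names and arms came from Release 6 RefSeq genes matched by gene identifier. For a gene with several probe sets the one with the highest mean was taken. Genotypes, replicates and array numbers came from the labels.

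Fits used limma 3.58.1 with a mean trend (R 4.3.3), on genes with a mean of at least 6, with Benjamini-Hochberg adjustment over all tested genes and a threshold of 0.05. Single deletions and wild type were fitted as 8 groups without covariates, replicates 3 against 1 and 2 with deletion as a block, doubles as 1 group against singles weighted by their use in the doubles, and carriers additively with array number as a block. P-values measure the spread between arrays. Where doubles enter a fit, with 1 array per genotype, that spread can also include differences between genotypes. Counts and correlations used Python 3.11.15 with pandas 2.3.3. The fits were tested on simulated data with normal noise and even shifts of whole groups. Genes that are high in only a few arrays, like the chorion genes, were not simulated.

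The members, gene lists and tests were chosen with earlier results of these data known. Named genes were the members, the 6 genes most like Cp36 and Cp15, and up to 4 passing genes with the largest differences per list, or up to 2 if none passed; genes picked for their pattern across arrays were named after their values were seen. Alternatives covered the filter, probe set choice, trend, centring, blocks and left-out replicates. Promoter sequences were not used here.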

Additional observations from a re-analysis of the deposited data

How the results depend on the processing

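For chorion genes, each test kept its count of called chorion genes under the alternatives run, except that replicates 3 against 1 and 2 had 0 calls among 4 tested genes and 1 call, Cp7Fc, with no filter on low values. A replicate block was also fitted for single deletions against wild type. It turned the differences of Cp7Fc, Cp15, Cp16, Cp18, Cp19 and Cp38 to 0.59, 0.52, 0.31, 0.53, 0.21 and 0.053, gave -0.01 for Cp36, and called no chorion gene. Replicate numbers were not taken as pairs across this comparison, since correlations of deviations were not over 0.1 in every pair. Between deletions, same-numbered arrays ran from -0.10 to 0.84, with 27 of 30 over 0.1, against 10 of 60 with other numbers, so arrays of a number deviated together among most deletions. Between wild-type replicates 1 to 3 and deletions the range was -0.49 to 0.70, with 7 of 15 same-numbered and 14 of 30 other pairs over 0.1. Wild-type replicates 4 to 6 share their numbers with no single-deletion array, so the block compares replicates 1 to 3 only. Without wild-type replicates 4 and 5 together, chosen after seeing the data, Cp7Fc was 0.12. Leaving out 1 replicate at a time, the single-deletion difference ran from -3.34 to -1.78 for Cp36 and from -4.14 to -2.14 for Cp15, smallest without wild-type replicate 4, and no gene was called. Over the same step the difference of replicates 3 ran from -0.40 to 2.20 for Cp15 and from 0.92 to 2.04 for Cp7Fc, and the double-deletion difference of Cp7Fc from -0.0082, without the second ED7665 replicate, to 0.55. Among the other genes named from the lists, no value that turned was called, before or after turning. For single deletions against wild type, yl, orb and otu were -0.34, -0.044 and -0.29 with array number as a block and -0.40, -0.073 and -0.32 with only arrays numbered up to 26. In the same comparison dec and Orc1 were 1.33 and 0.32 with the replicate block and 1.20 and 0.37 without wild-type replicates 4 and 5. With 1 replicate left out, dec ran from -1.13 to 0.30 and yl from -0.015 to 0.50. Between replicates 3 and replicates 1 and 2, ftz-f1 was 0.032 when a gene's probe sets were averaged. The replicate block took the call from yellow-g (-0.83, limma adjusted p = 0.153) and gave one to Sox14, Yp3, yl, orb, otu, Jon99Fi and Jon65Ai. Of these genes' values, 179 kept direction and call, 11 turned, 10 gained and 8 lost the call, and with a replicate left out 640 kept them, 62 lost the call and 3 turned. Among values of single chorion genes, 110 kept direction and call under the other settings and 7 turned, and with a replicate left out 449 kept them, 4 lost the call and 2 turned. The count of arrays with the early gene above and the late gene below was 0 at the middle of the range, 2 at 25% of it, 7 at the median and 1 with Cp38 and Cp16. The count of the reverse was 1 at the middle, 3 at 25% of it, 7 at the median, 0 with Cp38 and Cp16 and 0 without ED1770+ED3, a choice made after seeing the data. At the median the low bands are cut in 2, so those counts order values within the low band. Signal near background limits statements on low arrays, where dim probe sets have compressed differences.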

Other observations

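In the ED1770+ED3 array, which was high in the 3L chorion genes alone, the other large rises over a gene's median were LysX at 3.31, TotC at 3.25, pim at 3.01, Drsl3 at 2.96 and CG13947 at 2.92. LysX encodes a lysozyme, TotC a stress-induced humoral factor and Drsl3 a drosomycin-like peptide. In the first ED7665 replicate, high in the X genes, Fcp3C rose by 3.36 over its median. These are values of single arrays, chosen after they were seen, with no test.

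Besides yellow-g and yellow-g2, the genes above the middle of their own range in the same 6 arrays as Cp36 and in no other were Cp38, Cp18, CG13114, CG11381 and CG4009. CG13114, CG11381, CG4009 and yellow-g2 had means below 6. With Cp15, Cdc6 and Cdk2, both cell cycle genes of DNA replication, and RnrL, the large subunit of ribonucleotide reductase, shared the same 7 arrays. Cdc6 lay between 7.11 and 8.81 in these 7 arrays and between 5.37 and 6.98 elsewhere, and RnrL between 9.15 and 10.40 in these 7 and between 7.89 and 8.96 elsewhere. The genes were found by this pattern, so it is a description.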
